A study of Capra hircus with 36 samples.

Results

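The miRNAs described here are the 75 rows, out of 1391 mature miRNAs in the deposited table, whose precursor name runs from miR-2284 to miR-2490, whatever the letter, copy or arm that follows the number. Hereafter they are called the members, and the miR-2284 and miR-2285 family among them is kept apart from the rest. The family has 9 rows from 6 precursor names and the other members have 66 rows. Of the 75 members, 65 are in the class that the authors called Conserved, which holds miRNAs whose mature sequence is the same as one recorded for another mammal, and 10 are in the class called Known, which holds miRNAs already recorded for goat. The 75 rows come from 52 precursor names under 38 of the 207 numbers in the range. Both arms were listed for 23 precursor names, only the 5p arm for 15 and only the 3p arm for 14.

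The libraries were made from domestic goats of 2 populations, Tibetan goats kept at 3000 m (high altitude) and Chuandong White goats kept at 600 m (low altitude). In each population 3 adult females, all over 3 years old, gave spleen, lung, liver, kidney, heart and muscle (longissimus), so that 36 small RNA libraries fall into 12 groups of 3 goats. Population and altitude go together in every library and cannot be told apart, and the same 6 goats supply all 6 tissues. The paper also lists stocking or nomadism for the high-altitude and home rearing for the low-altitude goats, and a lower mean body weight at high altitude. These cannot be told apart from altitude either. Counts of a whole tissue do not separate fewer cells of a type from less RNA per cell.

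A miRNA is a short RNA cut from a hairpin precursor, and the 5p and 3p forms are the opposite arms of that hairpin. Bound by an Argonaute protein it pairs with messenger RNAs, mainly through a short seed near its 5′ end, and lowers their translation or stability. The number in a miRNA name follows the order of registration and says nothing of sequence or function. Many of the numbers used here were first given to miRNAs of cattle. The miR-2284 and miR-2285 names cover a large ruminant family with many copies in the cattle genome, and few of the other members have a known function. Exceptions by name are miR-2355 and miR-2467, which are also recorded for human.

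The libraries held between 7108635 and 14407748 counts, so that 3 counts were worth 0.208 to 0.422 RPM (reads per 1000000 counts of all miRNAs in that library), which is the upper limit that a count of 0 allows for. Intervals and limits of this kind cover counting error only. The miRNA lists fixed to check the tissue labels were highest in their own tissue, except for the kidney tubule list, of which 2 rows were found and which was at 3372 RPM in kidney and 17590 RPM in liver on average. The third low-altitude muscle library stood apart. It held 41 miRNAs with at least 50 counts at more than 10 times the RPM of each of the other 5 muscle libraries, against at most 15 in any other library, and 3 of the 41 were members.

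Detection of the members was sparse. Together they held 27692 of 379985891 counts, or 0.00729%, while being 5.39% of the miRNAs. The family gave 40.0% of those counts, and miR-2379-5p in the third low-altitude muscle library gave 23.7% alone. Without that library the members held 20267 counts, of which the family gave 53.2%. No member had reads in all 36 libraries, whereas 260 of the 1391 miRNAs did. The median member had reads in 4 libraries, against 9 for all miRNAs and 4 for the Conserved miRNAs that are not members. In 34 members (45.3%) the highest count in any library was under 10, against 27.5% of all miRNAs and 42.0% of the other Conserved miRNAs. The family differed from the other members in these counts. Its median row had reads in 25 libraries and the median of the other members in 3. Of the 10 Known members, the median had reads in 18.5 libraries, against 36 for all 447 Known miRNAs.

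**Figure D1:**
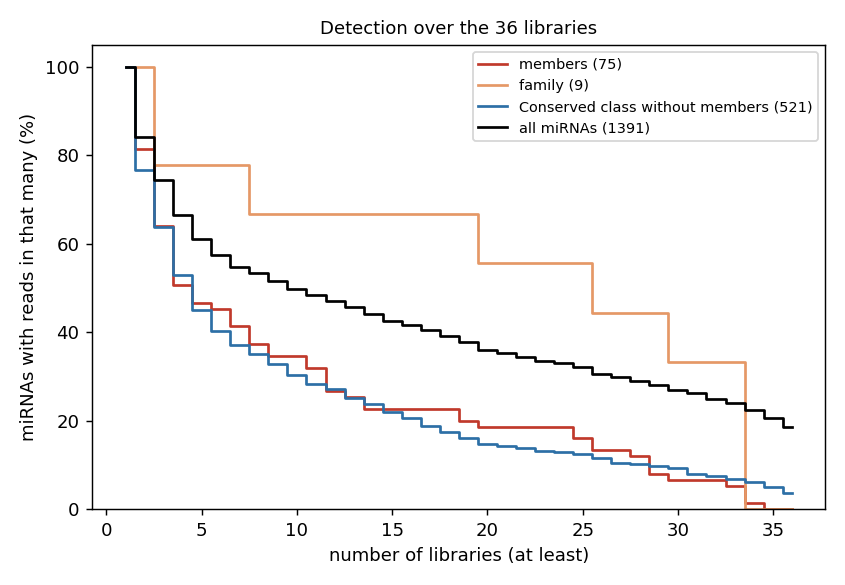
Share of miRNAs (vertical axis, %) with at least 1 count in at least the number of libraries on the horizontal axis, for the 75 members, the 9 rows of the miR-2284 and miR-2285 family, the 521 Conserved miRNAs that are not members and all 1391 miRNAs. The curve of the members runs near that of the other Conserved miRNAs and below that of all miRNAs, the family lies above all of them until 33 libraries, and no member reaches 36.

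A library contained reads of 13 to 30 members, with a median of 19. The number was highest in spleen, at 23.2 ± 4.31 members (SD, n = 6), and in liver, at 22.0 ± 3.74, and it was lowest in kidney, at 16.8 ± 3.43. Over all miRNAs the mean number with reads was also highest in spleen, lung and liver followed at 614 ± 39.8 and 613 ± 32.8, and muscle was lowest at 547 ± 19.2. At least 1 liver library had reads for 51 of the 75 members (68.0%, beside 71.3% of all miRNAs), but only 1 member had reads in all 6 liver libraries. In heart, muscle and spleen 7 members had reads in all 6 libraries, in kidney 8 and in lung 3. Of all miRNAs, 368 had reads in all 6 libraries of liver, 369 of heart and 357 of muscle. For spleen, kidney and lung these were 377, 387 and 388. Reads occurred only at high altitude for 14 members and only at low altitude for 9, and all 9 family rows had reads at both. Across all miRNAs these numbers were 187 and 146.

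Zeros beside sizeable counts were common within a group of 3 goats. Of the 218 member and group combinations with at least 10 counts in 1 of the 3 libraries, 116 (53.2%) also had a library at 0. The share was 36.8% for the family and 60.7% for the other members. It was 45.5% for the Conserved miRNAs that are not members, 26.1% for all miRNAs and 10.2% for the Known miRNAs. Of the 75 members, 34 had no library with 10 counts and are not among these combinations.

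Some rows could not be read as separate molecules. In the second high-altitude heart library, miR-2284a and miR-2285c-1 both listed 25 counts on the 5p arm and 32 on the 3p arm, and so did miR-1376 and 2 precursors without a registered name. In the third low-altitude spleen library, miR-2285c-1, miR-1376 and 3 unnamed precursors all listed 31 and 2. Each of these precursors had reads in all 36 libraries. In 4 libraries miR-2301 listed the counts of an unnamed precursor on both arms, among them the first high-altitude liver library with 21 and 6, and it was at 0 in many libraries where that precursor had reads. Among the rows with low totals, 8 members had counts equal in every library to those of another row, none with a total above 9. Equal counts were looked for on precursors with at least 20 counts over both arms, so that smaller ones were not covered.

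The summed level of the family averaged 29.3 RPM over the 36 libraries and ranged from 4.23 to 89.4 RPM between libraries. Its tissue means lay between 20.4 ± 16.5 RPM in spleen and 39.7 ± 28.4 RPM in liver (SD, n = 6), and the libraries of all tissues overlapped. Without miR-2379, the other members summed to 27.6 ± 16.9 RPM per library. Here the tissues were less alike. Spleen held 45.6 ± 6.18 RPM with libraries between 37.6 and 55.2 RPM, which was above every library of heart, kidney, lung and muscle, where the highest was 33.4 RPM. Liver held 42.4 ± 26.6 RPM, with 23.0 ± 10.6 RPM at high and 61.8 ± 22.8 RPM at low altitude (n = 3 each). Without miR-2474-3p, which was at 0 in the high-altitude livers, the mean low-altitude sum was 34.8 RPM. These sums were chosen after earlier results were known and were not tested.

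**Figure D2:**
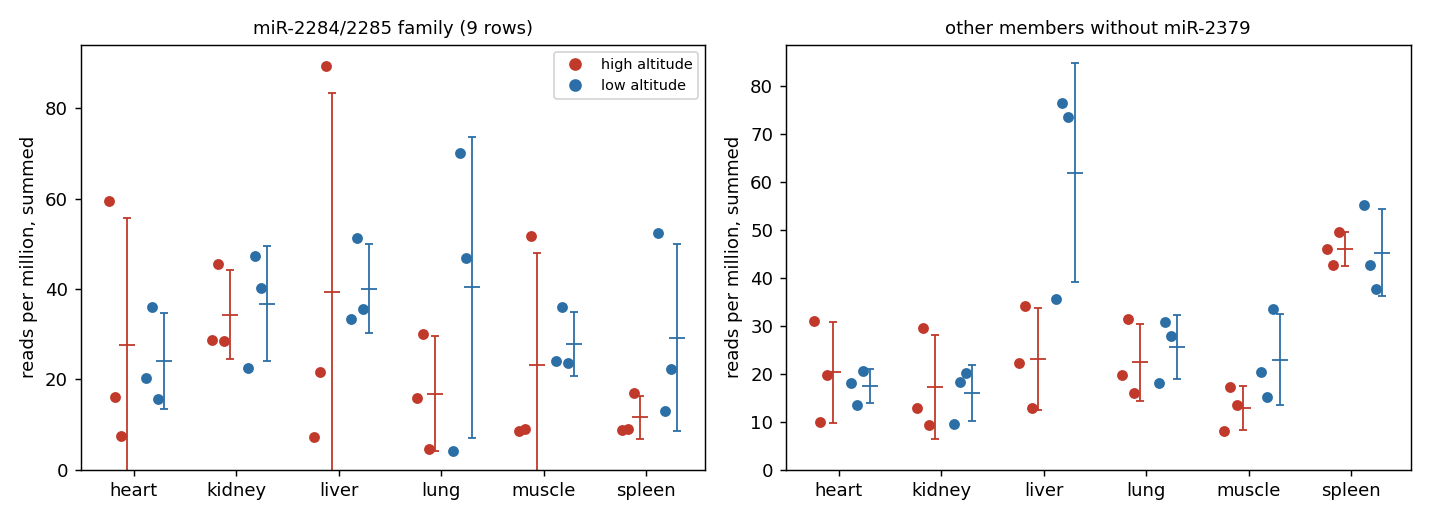
Summed level (vertical axis, RPM) of the 9 family rows (left) and of the other members without miR-2379 (right) in each library, by tissue, with high altitude in red and low altitude in blue. Each point is 1 goat, the horizontal mark beside the points is the mean of 3 goats and the bar is 1 SD, drawn down to 0 where it would pass it. The family overlaps between tissues, while the 6 spleen libraries of the other members lie between 37.6 and 55.2 RPM.

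Only 16 members reached a mean of 1 RPM over the 36 libraries, 5 of them in the family. The first by mean, miR-2379-5p, owed 99.8% of its counts to 1 library. After it came miR-2285c-1-3p at 8.36 ± 9.84 RPM, miR-2285a-3p at 6.78 ± 7.98, miR-2284a-3p at 6.03 ± 13.5, miR-2355-5p at 4.58 ± 5.03 and miR-2285a-5p at 4.35 ± 4.07 (SD, n = 36). The SD was as large as the mean or nearly so in each, so the neighbours in this order do not differ beyond their spread. The family thus held 4 of the 6 highest means, and miR-2355-5p was the highest of the other members apart from miR-2379-5p.

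**Figure D3:**
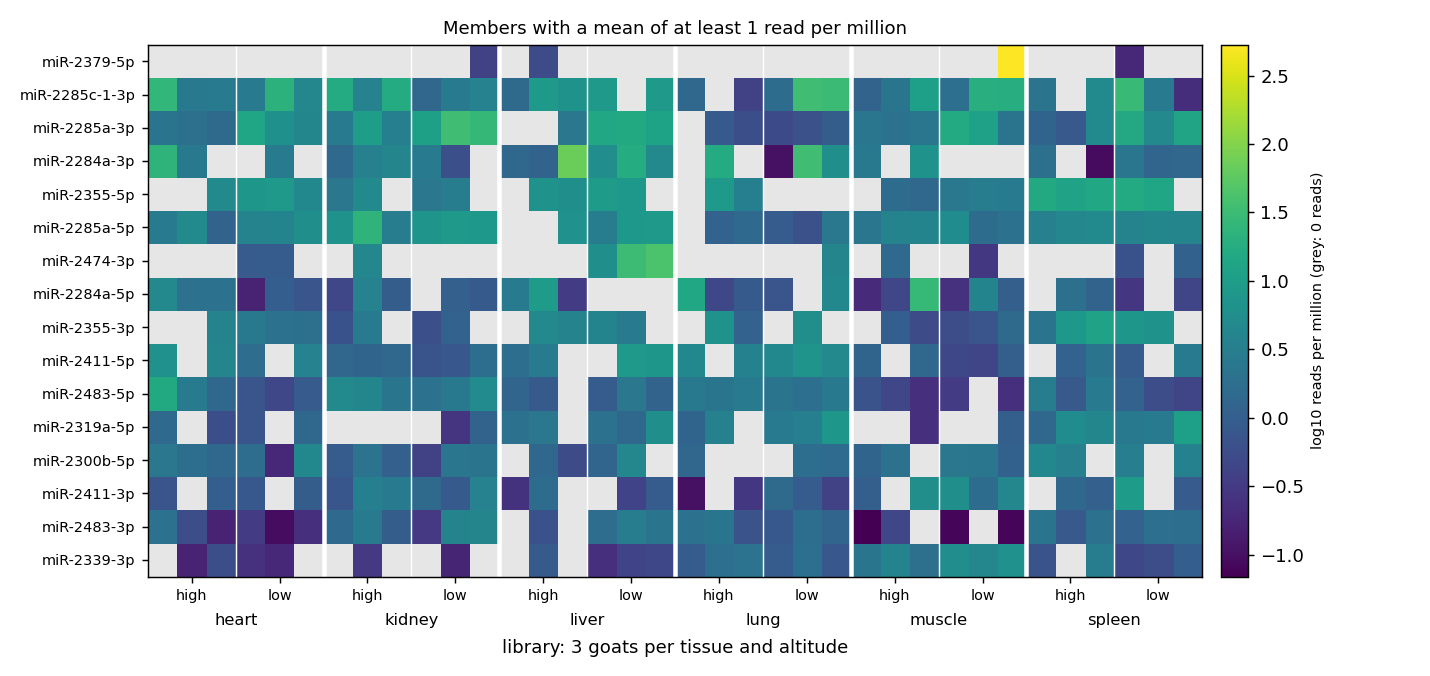
Level of the 16 members with a mean of at least 1 RPM (rows, in order of mean) in the 36 libraries (columns, by tissue and altitude, 3 goats each). Colour gives log10 RPM and grey marks a library at 0 reads. miR-2379-5p is bright in the third low-altitude muscle library only, and all 3 low-altitude libraries of miR-2285a-3p are brighter than the 3 high-altitude ones in heart, kidney and liver.

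In the miR-2284 and miR-2285 family, miR-2285a was the precursor most often detected on both arms together. Both arms had reads in the same 33 libraries and both were at 0 in the first and second high-altitude liver libraries and the first high-altitude lung library. The 3p arm averaged 14.8 ± 12.8 RPM in kidney and 0.600 ± 0.343 RPM in lung (SD, n = 6). In kidney the counts were 31, 99 and 37 at high and 112, 381 and 273 at low altitude, and in lung they were 0, 9 and 6 and then 5, 7 and 10. Every kidney library exceeded every lung library. The 5p arm averaged 9.51 ± 6.92 RPM in kidney and 1.11 ± 0.827 RPM in lung, with 25 counts as the highest of the 6 lung libraries.

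miR-2284a and miR-2285c-1 had reads on at least 1 arm in every library, but the arm changed from library to library. For miR-2284a, 18 libraries had both arms, 11 only the 5p arm and 7 only the 3p arm. Its 3p arm had 661 counts in the third high-altitude liver library and 11 in each of the other high-altitude liver libraries. Its 5p arm had 349 counts in the third high-altitude muscle library and 3 to 54 in the other muscle libraries. For miR-2285c-1 the 3p arm carried 94.9% of the counts and had reads in 33 libraries, from 2 to 368 counts. The 5p arm had reads in 7 libraries, between 7 and 69 counts, and in 3 of those the 3p arm was at 0. These are the precursors whose counts were equal to those of other rows in some libraries.

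The remaining family rows were low. miR-2284e-5p, the only Known row of the family, had reads in 19 libraries with at most 16 counts, and in liver the counts were 8, 16 and 11 at high and 11, 0 and 12 at low altitude. miR-2285l-3p had 85 counts in the second high-altitude lung library and 3 in a kidney library. miR-2285c-3p had 5 counts in a liver and 4 in a lung library.

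Among the other members, miR-2355 was highest in spleen. Its 5p arm had 117, 115 and 162 counts in the high-altitude and 170, 116 and 0 in the low-altitude spleen libraries, a mean of 12.1 ± 6.11 RPM against 3.08 RPM over the other 5 tissues. The 3p arm was at 6.19 ± 4.37 RPM in spleen. Neither arm passed the test in any tissue contrast, and in 11 libraries both arms were at 0. The 5p arm was at 0 in all 3 low-altitude lung libraries, while the 3p arm had 62 counts in the second of them. The arms went together in 24 libraries. miR-2411 had reads on both arms in 28 libraries and on neither in 8, with the 5p arm highest in lung at 4.04 ± 2.31 RPM and the 3p arm highest in muscle at 3.11 ± 2.54 RPM. miR-2483, a Known miRNA with reads in 34 libraries on its 5p arm, was at 3.73 ± 6.07 RPM in heart, where 1 library had 198 counts, 3.50 ± 1.41 RPM in kidney, 2.37 ± 0.359 RPM in lung and 0.328 ± 0.236 RPM in muscle. miR-2300b-5p did not pass the joint test over tissues (adjusted p = 0.41, edgeR), with means from 0.778 ± 0.862 RPM in lung to 2.45 ± 1.95 RPM in spleen.

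Whether the level of a member differed between tissues was asked with edgeR's quasi-likelihood test over all 36 libraries, with altitude as a term and Benjamini-Hochberg adjustment over all 1391 miRNAs. The test called 19 members at an adjusted p under 0.05, beside 44.5% of all miRNAs. Since the tissues came from the same goats, the goat was also used as a block. It left 10 members, all of them among the 19, beside 34.2% of all miRNAs. The 10 were miR-2339-3p and -5p, miR-2286-5p, miR-2285a-3p, miR-2318-3p, miR-2362-5p, miR-2331-5p and -3p, miR-2483-5p and miR-2319a-5p. Each tissue was then set against the mean of the other 5 on the log scale. A member was called when its adjusted p was under 0.05 and its log2 fold change at least 1.5 in size. These log2 fold changes are therefore not the ratios of the mean RPM values given beside them, and can differ widely from those. There were 34 such calls on 29 members, 29 calls higher and 5 lower, and 21 of the calls were also called with the goat block. In fits that each omitted 1 goat, 10 calls held in all 6. By the tissue specificity index, which is near 0 for an even level and reaches 1 when all reads are in 1 tissue, 42 members (56.0%) were over 0.85, beside 51.5% of all miRNAs. Of the 42, 15 were highest in liver, 9 in muscle, 7 in spleen, 6 in lung, 3 in heart and 2 in kidney, and the index is raised by reads in few libraries. The same index was passed by 716 of all miRNAs, and the liver was again first, with 189. Muscle was the top tissue for 94 of these, fewer than the 162 of spleen and the 129 of lung. Kidney and heart had 63 and 79. Among the 9 muscle members, both arms of miR-2379 and miR-2474-1-5p had muscle reads in the third low-altitude library only.

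Skeletal muscle stood out by miR-2339. Its 3p arm had 32, 50 and 24 counts in the high-altitude and 69, 60 and 80 in the low-altitude muscle libraries, against at most 34 in any library of another tissue. The mean was 4.09 ± 1.82 RPM in muscle (SD, n = 6) and 0.596 RPM over the other 5 tissues, 6.87 times as high. Every muscle library but 2 was above every library of the other tissues in counts. The log2 fold change was 4.38 with an SE of 0.62 (adjusted p = 9.5e-07, edgeR). The 5p arm, at 4 to 19 counts in muscle, had no reads in heart, kidney or liver, and it differed with an adjusted p of 3.0e-05. In the first low-altitude muscle library the 9 and 69 counts of miR-2339 were also those of miR-4802, and in the second low-altitude lung library the 1 and 20 counts were those of miR-7671. Lung was second, with 8 to 21 counts of the 3p arm in all 6 libraries, and its 5p arm was called higher there too (log2 fold change 2.98, SE 0.74, adjusted p = 0.0075), a call lost without the third high-altitude goat (adjusted p = 0.059). Kidney was at the other end, with 3p counts of 0, 3 and 0 at high and 0, 2 and 0 at low altitude (log2 fold change -3.36, SE 0.98, adjusted p = 0.014), a call lost without the third high-altitude or the first or the third low-altitude goat (adjusted p = 0.056 to 0.083).

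In all, 8 members were called higher in muscle, beside 12% of all miRNAs, and 1 was called lower, beside 4.96%. miR-2286-5p had reads in all 6 muscle libraries, with 6, 40 and 12 counts at high and 9, 6 and 6 at low altitude, a mean of 1.03 ± 1.05 RPM against 0.295 RPM elsewhere (log2 fold change 4.63, SE 0.95, adjusted p = 0.00043). Without the second high-altitude goat the means were 0.604 and 0.0286 RPM (log2 fold change 5.97, adjusted p = 0.00051). Outside muscle it had reads in 5 of 30 libraries, and 4 of these came from the second high-altitude goat, with 13 counts in kidney, 37 in liver, 9 in lung and 18 in spleen. That goat thus had reads of miR-2286-5p in 5 tissues and each of the others in 1 or 2. No other member was spread over the tissues of a single goat in this way. With the goat block the muscle difference had an adjusted p of 1.4e-07. miR-2411-3p had 15, 0 and 73 and then 72, 22 and 54 counts in muscle (log2 fold change 2.79, SE 0.78, adjusted p = 0.0082), and this call was lost without the first (adjusted p = 0.058) or the third (adjusted p = 0.12) high-altitude goat and with scaling by library size alone (log2 fold change 1.67, adjusted p = 0.17).

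The member called lower in muscle was miR-2483-3p. It had 1, 6 and 0 counts at high and 1, 0 and 1 at low altitude in muscle, and a median of 14 in the other tissues, that is 0.117 ± 0.177 RPM against 1.43 RPM. The log2 fold change was -2.58 with an SE of 0.87 (adjusted p = 0.031). Without the first high-altitude goat or any of the low-altitude goats it did not pass, at adjusted p-values of 0.064 to 0.12. The 5p arm of the same precursor was also low in muscle at 0 to 10 counts, and did not pass the main test (log2 fold change -1.79, adjusted p = 0.061), but did with DESeq2 (adjusted p = 0.0037).

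Of the remaining muscle calls, 3 rested on the third low-altitude muscle library. miR-2379-5p had 6575 counts there and 0 in the other muscle libraries, miR-2379-3p had 146 against 0, and miR-2474-1-5p had 108 against 0. In all other libraries miR-2379-5p had at most 5 counts and miR-2379-3p at most 9. Without that library the log2 fold changes turned from 10.65, 6.05 and 5.34 to -1.27, -0.50 and -1.59. With the goat block miR-2379-5p was still called (adjusted p = 0.047), while miR-2379-3p and miR-2474-1-5p were not (adjusted p = 0.21 and 0.27). An unnamed precursor of the table listed the same 6575 and 146 counts in that library, and 1064 and 14 counts in the first low-altitude heart library, where miR-2379 was at 0. The same muscle library had 11855 counts of miR-379-5p against 4 to 219 in the others, 320732 of miR-381-3p against 480 to 10852 and 716546 of miR-1-3p against 13957 to 34964. The part of these in the miR-2379 values was not tested. miR-2284a-5p, with 349 counts in the third high-altitude muscle library and 3 to 54 in the others, was called higher (log2 fold change 2.95, adjusted p = 0.0049) but not without that goat (adjusted p = 0.29) or with the goat block (adjusted p = 0.065).

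**Figure D4:**
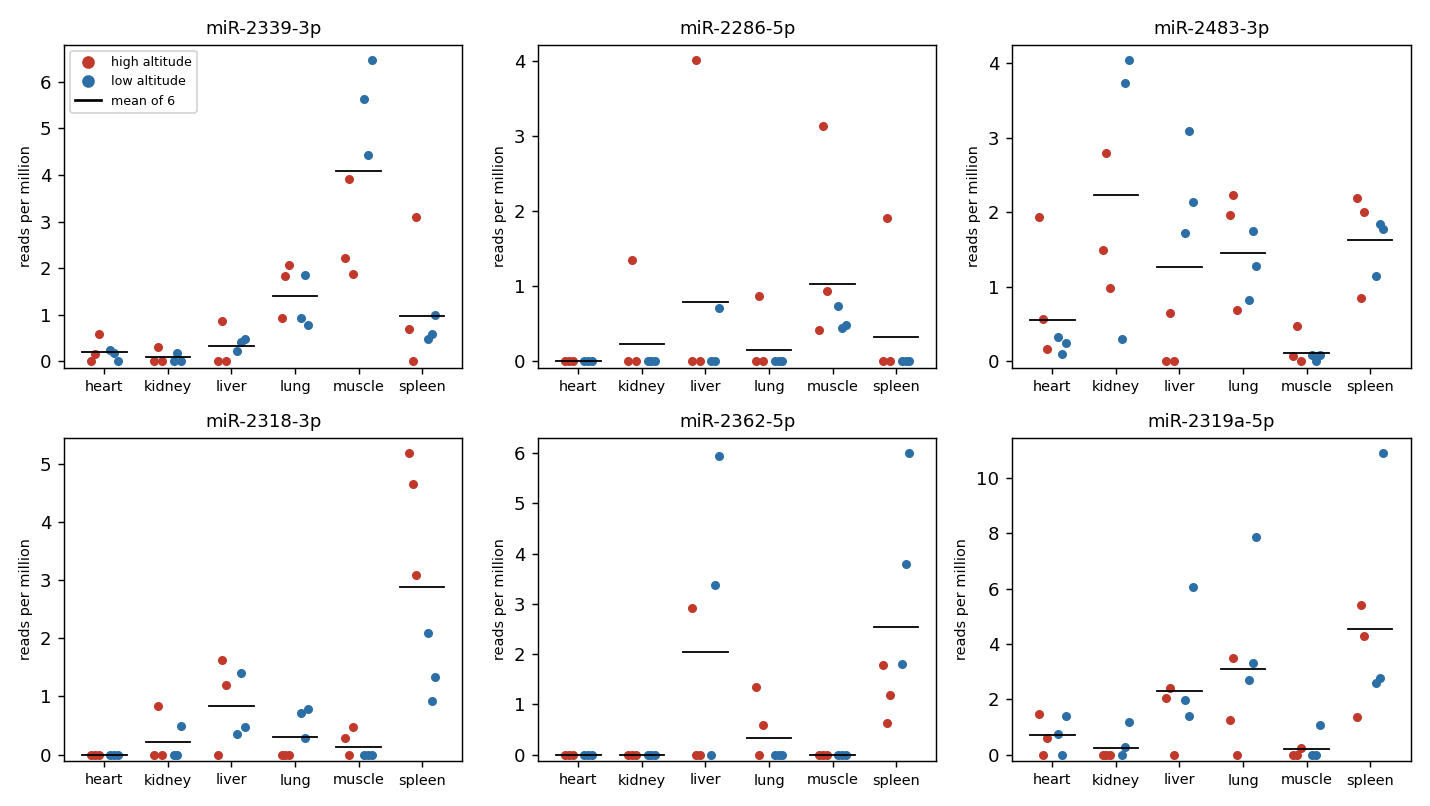
Level (vertical axis, RPM) of 6 members in each library by tissue. Each point is 1 goat, red for high and blue for low altitude, and the black line is the mean of the 6 libraries. miR-2339-3p and miR-2286-5p have reads in all 6 muscle libraries, miR-2483-3p is lowest in muscle, and miR-2318-3p, miR-2362-5p and miR-2319a-5p have reads in all 6 spleen libraries.

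Spleen had 9 members called higher, beside 13.1% of all miRNAs, and none called lower, beside 4.67%. miR-2318-3p had 38, 44 and 34 counts at high and 22, 8 and 12 at low altitude in spleen, with 0 in all 6 heart libraries and at most 15 in any other tissue. The mean was 2.88 ± 1.76 RPM in spleen and 0.297 RPM over the other 5 tissues, 9.70 times as high (log2 fold change 3.78, SE 0.82, adjusted p = 0.0011). In heart its level was at least 3.48-fold lower than the mean of the other 5 tissues when each heart library is set at 3 counts (adjusted p = 0.015). That bound rests mostly on spleen. Lung was at 0.297, kidney at 0.220 and muscle at 0.125 RPM, beside a heart limit of 0.251 RPM, so it does not hold against these tissues. The heart call missed the threshold without the third low-altitude goat (adjusted p = 0.053).

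miR-2362-5p was a spleen and liver member. In spleen it had 13, 6 and 13 counts at high and 19, 33 and 54 at low altitude, and in liver 23, 0 and 0 and then 0, 24 and 50. It was at 0 in all 18 libraries of heart, kidney and muscle, and lung had 13 and 6 counts in 2 libraries. The log2 fold change was 5.07 in spleen (SE 1.04, adjusted p = 0.0013) and 4.62 in liver (SE 1.01, adjusted p = 0.0027). Both calls held with each goat left out and with the goat block, while DESeq2 gave an adjusted p of 0.068 in liver.

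miR-2319a-5p had 10 to 98 counts in spleen and was at 4.55 ± 3.42 RPM there against 1.31 RPM elsewhere (log2 fold change 2.43, SE 0.78, adjusted p = 0.022). Lung followed at 3.10 ± 2.68 RPM, and kidney and muscle were lowest at 0.242 ± 0.474 and 0.214 ± 0.421 RPM. The call was lost without the second high-altitude goat (adjusted p = 0.11) or the first (adjusted p = 0.066) or second (adjusted p = 0.054) low-altitude goat. miR-2387-5p had 35, 0 and 10 and then 22, 22 and 19 counts in spleen (log2 fold change 2.84, adjusted p = 0.022). That call was lost without the first (adjusted p = 0.31) or the third high-altitude goat or the first or second low-altitude goat (adjusted p = 0.056 to 0.073). The goat-recorded miR-2331 was called on both arms from few reads. Its 5p arm had 7, 0 and 6 and then 4, 2 and 2 counts in spleen and at most 3 elsewhere (adjusted p = 0.0025), and its 3p arm had 2, 0 and 10 and then 7, 8 and 9 and at most 7 elsewhere (adjusted p = 0.0089, and 0.053 without the third low-altitude goat). DESeq2 did not call either arm (adjusted p = 0.26 and 0.19). The other spleen calls, miR-2425-5p, miR-2387-3p and miR-2338-5p, were at most 9 counts in any spleen library. The first was lost without the first low-altitude goat (adjusted p = 0.062), the second without the first high-altitude (adjusted p = 0.17) or the first or the third low-altitude goat (adjusted p = 0.056 and 0.058), and the third without any 1 of the 6 goats. With the goat block miR-2387-3p and miR-2338-5p were not called (adjusted p = 0.072 and 0.30).

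In the marker check, the 4 leukocyte miRNAs summed to between 17128 and 66939 RPM in spleen and to 6323 to 22539 RPM in liver, the next highest tissue by mean. Their part in the spleen and liver levels of the members was not tested.

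Liver had 6 members called higher, beside 11.4% of all miRNAs, and none called lower, beside 3.02%. DESeq2 called no member in liver, beside 9.98% of the 1282 miRNAs that it adjusted. Of the 6, 1 was called with the goat block, miR-2362-5p, beside 8.77% of all miRNAs called higher or lower with that block. miR-2369-3p had 7, 12 and 0 counts at high and 3, 13 and 12 at low altitude in liver and no read in the 30 libraries of the other tissues, which puts liver at least 3.47-fold higher with each other library set at 3 counts (adjusted p = 0.0010, and 0.055 with the goat block). Its 5p arm had at most 6 counts, all of them in liver, and was not called without the second low-altitude goat (adjusted p = 0.055). The calls of miR-2415-5p, with 26 and 37 counts in 2 liver libraries, and of both arms of miR-2301, at most 21 counts in liver, were lost with the goat block at adjusted p-values of 0.11 to 0.14. They were also lost without the first goat of either population, at adjusted p-values of 0.072 to 0.46, and those of miR-2301 without the second high-altitude goat (adjusted p = 0.15 on each arm). The 3p arm of miR-2301 was also lost without the third high-altitude goat (adjusted p = 0.069). In the first liver library of each population miR-2301 listed the counts of the unnamed precursor described above. These were 21 and 6 at high and 20 and 7 at low altitude.

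In kidney, 2 members were called higher, beside 9.35% of all miRNAs, and 1 was called lower, beside 2.37%, the last being miR-2339-3p. miR-2285a-3p, described above, was 2.85 times as high in kidney as in the mean of the other tissues (log2 fold change 1.81, SE 0.54, adjusted p = 0.017), and the call held with each goat left out. miR-2483-5p had 52, 41 and 25 and then 19, 29 and 52 counts in kidney (log2 fold change 1.53, SE 0.54, adjusted p = 0.048), a call that did not hold with other scalings (adjusted p = 0.096 and 0.091) or without the third high-altitude goat or the first or the third low-altitude goat (adjusted p = 0.050 to 0.097). In lung, 3 members were called higher, beside 8.99%, and 2 lower, beside 3.74%. The lower ones were both arms of miR-2285a, with log2 fold changes of -3.46 (SE 0.82, adjusted p = 0.0024) for the 3p and -2.51 (SE 0.78, adjusted p = 0.023) for the 5p arm. The 5p call was lost without the first or second low-altitude goat (adjusted p = 0.075 and 0.073). Of the higher ones, miR-2285l-3p rested on the second high-altitude library, with a log2 fold change of -0.47 without that goat, and miR-2461-5p had 9 counts in the second high-altitude and the third low-altitude library and was lost without either (adjusted p = 0.13 each). With the goat block neither was called (adjusted p = 0.33 and 0.26).

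Heart had 1 call each way, beside 7.62% higher and 4.39% lower of all miRNAs. The lower was miR-2318-3p and the higher was miR-2347-3p, whose 32 heart counts were all in the second high-altitude library. Without that goat its log2 fold change was -1.22, and with the goat block it was not called (adjusted p = 0.35).

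The altitude comparison asked, within each tissue, whether the level differed between 3 high-altitude and 3 low-altitude goats. edgeR's quasi-likelihood test called none of the 75 members in any tissue. Of all 1391 miRNAs it called 1 lower in muscle (0.0719%) and 2 lower in spleen (0.144%), and none higher. At an unadjusted p under 0.05 lung had 5 members, heart had 3, kidney and liver had 2 each, and muscle and spleen had 1 each, beside 4.74%, 6.4%, 4.6%, 4.24%, 6.18% and 5.75% of all miRNAs in that order of tissues. DESeq2 adjusted 803 of the miRNAs in heart, 838 in kidney and 945 in liver. It called 2 members in heart, beside 4.48% of those miRNAs, 1 in kidney, beside 2.86%, 2 in liver, beside 3.28%, and none in the other tissues. Members with reads were 35, 37 and 51 in heart, kidney and liver, so these shares are not to be set against all 75. edgeR's exact test called 1 in liver, beside 0.575%. The directions were mixed. Of the members with reads in the tissue, 16 of 44 had a positive fold change in spleen, 18 of 40 in muscle, 22 of 43 in lung, 26 of 51 in liver, 17 of 37 in kidney and 18 of 35 in heart. Over all miRNAs these were 475 of 967, 465 of 852, 454 of 910, 480 of 992, 372 of 865 and 450 of 838 in the same order. The median log2 fold change of the members was -0.68 in spleen and -0.86 in muscle, beside -0.03 and 0.22 for all miRNAs, and between -0.06 and 0.51 in the other tissues, beside -0.21 to 0.10. Both arms of miR-2379 and of miR-2301, miR-2474-1-5p, miR-2387-5p and miR-2426-3p had muscle reads in the third low-altitude library only. The muscle median and tally of directions thus lean on that library, and neither was taken without it.

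Members whose 3 high-altitude libraries did not overlap the 3 low-altitude ones were few. At high altitude 2 members were higher (2.67%) and 1 lower (1.33%) in heart, beside 8.05% and 4.03% of all miRNAs. In kidney none was higher, beside 1.73%, and 1 was lower, beside 3.67%. In liver 1 was higher, beside 2.37%, and 4 were lower (5.33%), beside 5.97%. In lung none was higher, beside 2.3%, and 5 were lower (6.67%), beside 5.97%. In muscle none was higher, beside 3.24%, and 3 were lower (4.0%), beside 5.18%, and in spleen 1 was higher and 1 lower, beside 4.46% and 5.54%. These shares were near or below those of all miRNAs.

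The member whose groups were apart in the most tissues, 3 of 6, was miR-2285a-3p. In heart it had 27, 23 and 18 counts at high and 167, 66 and 52 at low altitude. In kidney, as given above, the groups were also apart. In liver it had 0, 0 and 22 counts at high and 130, 113 and 103 at low altitude. The high-altitude libraries were below the low-altitude ones in each of these 3 tissues. In muscle the counts were 33, 26 and 30 against 202, 157 and 27, and in spleen 9, 8 and 55 against 161, 41 and 114, so that the groups overlapped by 1 library.

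The mean of miR-2285a-3p was 4.31 times as high at low altitude in heart, 4.37 times in kidney, 4.54 times in muscle and 4.63 times in spleen, and 1.47 times in lung, where it was at most 10 counts. Leaving out 1 library moved these ratios to 2.78 in heart (the first low-altitude), 7.73 in kidney (the second high-altitude) and 10.5 in spleen (the third high-altitude). In lung the ratio was 2.43 without the second high-altitude library, and without the first, which was at 0 on both arms, the direction turned, with 0.729 RPM at high and 0.714 RPM at low altitude. The log2 fold change of high over low altitude was -2.32 in heart (SE 0.63, adjusted p = 0.46) and -2.18 in kidney (SE 0.46, adjusted p = 0.63), and DESeq2 called both (adjusted p = 0.012 and 0.00019). In liver it was -3.75 (SE 1.87), which neither edgeR (adjusted p = 0.73) nor DESeq2 (adjusted p = 0.39) called. Over the 6 tissues of each goat the high-altitude goats had 100, 165 and 168 counts and the low-altitude goats 777, 765 and 579. These are 2.25 ± 0.555 RPM and 11.3 ± 1.74 RPM (SD, n = 3 each), and the groups were well apart. The log2 fold change was -2.36 with an SE of 0.45 (adjusted p = 0.18 by edgeR and 4.9e-05 by DESeq2). Without liver and lung, where both arms were at 0 in 3 libraries, it was -2.18 (adjusted p = 0.17). In heart the 4 leukocyte miRNAs were also apart by altitude, at 1936 to 3480 RPM at high and 1519 to 1908 RPM at low altitude with none at 0, and in liver the 3 erythroid rows were at 343 to 6381 and 8651 to 9952 RPM, with miR-144 at 0 on both arms in 1 high-altitude library. Their part in these differences was not tested.

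The 5p arm of the same precursor did not follow. Over the tissues of each goat it had 167, 386 and 225 counts at high and 259, 266 and 316 at low altitude, or 4.05 ± 1.77 and 4.48 ± 0.513 RPM, and the groups overlapped. The 3p arm therefore made up a different share of the miR-2285a counts. In the high-altitude goats it was 37.5%, 29.9% and 42.7%, and in the low-altitude goats 75.0%, 74.2% and 64.7%, with 95% Wilson intervals that were all apart between the groups. The mean share was 36.7% at high and 71.3% at low altitude, 34.6 percentage points lower at high altitude (exact permutation test, two-sided p = 0.1, the smallest that 3 against 3 goats can give). Within tissues the shares did not overlap in kidney, muscle and spleen, each with the same exact p, which the lack of overlap gives by itself. They overlapped in heart, at 27.1% to 56.2% and 41.6% to 78.4%, and in lung. In liver only 1 high-altitude library had reads of miR-2285a. Its share was 27.2%, against 58.2% to 82.8% at low altitude, and was not tested. The 3p share was chosen after the values of both arms had been seen, so that the exact test only restates the lack of overlap.

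**Figure D5:**
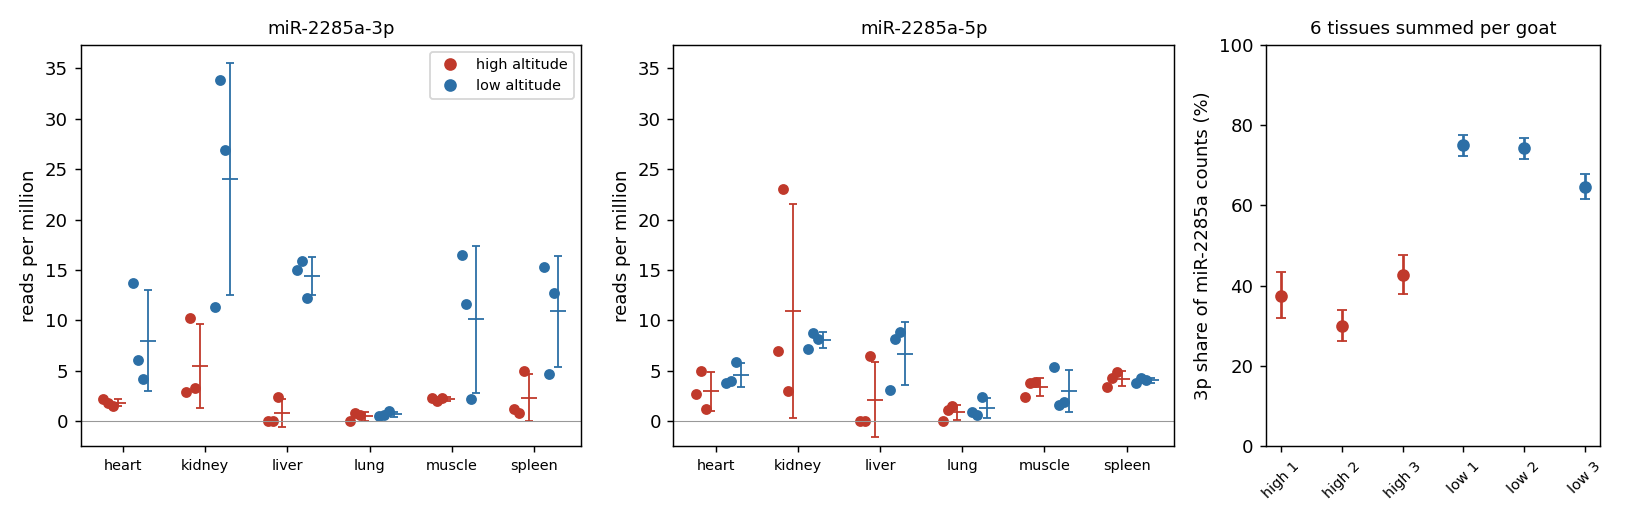
Level (vertical axis, RPM) of the 3p arm (left) and 5p arm (middle) of miR-2285a in each library by tissue, with the mean and 1 SD of 3 goats beside the points, and the 3p share of all miR-2285a counts per goat with its 95% Wilson interval (right). Red is high and blue is low altitude. The 3p arm is lower at high altitude in heart, kidney and liver without overlap, the 5p arm overlaps, and the shares are 29.9% to 42.7% in the high-altitude and 64.7% to 75.0% in the low-altitude goats.

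The largest altitude difference among the members without overlap was in liver. miR-2474-3p was at 0 in the 3 high-altitude livers and at 52, 230 and 359 counts in the low-altitude ones, a mean of 27.0 ± 18.9 RPM (n = 3) and at least 78.4-fold higher at low altitude with each high-altitude library set at 3 counts. edgeR's quasi-likelihood test gave an adjusted p of 0.20, its exact test 0.00022 and DESeq2 6.6e-07. Elsewhere this arm was at 0 in 22 of 30 libraries and reached 42 counts in a kidney library of the second high-altitude goat and in a lung library of the third low-altitude goat. The erythroid rows were also lower in liver at high altitude, as given above, and their part in the miR-2474-3p difference was not tested. miR-2284a-5p went the other way in liver, with 21, 91 and 3 counts at high altitude and 0 in all 3 at low altitude, at least 11.5-fold higher (adjusted p = 0.69, and 0.0078 by DESeq2). Without the second high-altitude library the bound was 4.0-fold. Summed over tissues it had 225, 180 and 408 counts at high and 15, 77 and 81 at low altitude, or 4.20 ± 1.75 and 0.924 ± 0.596 RPM (log2 fold change 2.29, SE 0.77, adjusted p = 0.40 by edgeR and 0.026 by DESeq2). Of the 408 counts, 349 were in the third high-altitude muscle library. The rest is below the 77 and 81 counts of the low-altitude goats, so that the groups overlap without that library. The groups of the 3p arm of miR-2284a overlapped in every tissue. The counts of miR-2284a that were equal to those of other precursors in a heart library are given above, and their part in these values was not tested.

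In heart miR-2483-5p had 198, 35 and 17 counts at high and 9, 5 and 11 at low altitude, a mean 9.69 times as high (log2 fold change 3.10, SE 1.03, adjusted p = 0.61 by edgeR and 0.034 by DESeq2). Without the first high-altitude library the mean was 3.06 times as high (log2 fold change 1.38, adjusted p = 0.99). In the other tissues its groups overlapped. The leukocyte miRNAs were also higher in heart at high altitude, as given above, and their part in the miR-2483-5p difference was not tested. In lung both arms of miR-2301 were at 0 at high altitude and had 16, 19 and 2 counts (5p) and 18, 9 and 2 counts (3p) at low altitude. They were at least 4.02-fold and 3.22-fold higher there (adjusted p = 0.83 for each), and 1.72-fold for the 3p arm without the first low-altitude library. The 16 and 18 counts of that library were also those of the unnamed precursor described above. The family row miR-2285c-1-3p had 14, 0 and 4 counts in lung at high and 16, 368 and 309 at low altitude (log2 fold change -4.84). In muscle miR-2339-3p was 2.06 times as high at low altitude (adjusted p = 0.80), and miR-2355-5p had 0, 21 and 18 against 31, 40 and 33 counts (adjusted p = 0.93). In spleen miR-2318-3p was 2.98 times as high at high altitude and miR-2362-5p 3.23 times as high at low altitude, each with an adjusted p of 0.73. edgeR's quasi-likelihood test called none of these, and DESeq2 called miR-2483-5p in heart only.

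Taking the goat as the unit, the counts summed over 6 tissues gave no call among the members, beside 0.216% of all miRNAs called lower and none higher, and 5 members at an unadjusted p under 0.05, beside 10.6%. Of the 5, 2 were the arms of miR-2379, which rest on the third low-altitude muscle library, and with muscle left out of the sums there were 3. DESeq2 called miR-2285a-3p and miR-2284a-5p, beside 3.82%. The groups did not overlap in 5 members higher (6.67%) and 5 lower (6.67%) at high altitude, beside 5.82% and 7.98% of all miRNAs. Of these, miR-2318-3p had 42, 67 and 51 against 32, 21 and 29 counts, and miR-2339-3p had 46, 82 and 86 against 88, 92 and 101. miR-2474-3p had 0, 61 and 0 against 70, 244 and 411. Beside these and both members called by DESeq2, the other 5 had at most 25 counts in a goat, among them miR-2360-5p with 8, 6 and 5 counts at high and 0 at low altitude. miR-2284a-5p was among the 5 higher only with the third high-altitude muscle library, which held 349 of its 408 counts in that goat.

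Whether the altitude difference itself changed between tissues was tested with the interaction terms of a fit to all 36 libraries. No member passed after adjustment by edgeR, beside 0.216% of all miRNAs, and none by DESeq2, beside 3.46%. At an unadjusted p under 0.05 there were 2 members, miR-2474-3p (adjusted p = 0.33, edgeR) and miR-2318-3p (adjusted p = 0.69), beside 6.69% of all miRNAs.

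The gene annotation used for names, RefSeq on ARS1.2, lists 15 goat miRNA genes in this range of numbers, and 6 of them have a Known row here. The other 9, MIR2284A to MIR2284D among them, have no Known row, and the Conserved rows of the same name were not matched to them. MIR2318 lies inside MADD, MIR2331 inside RAD51D, MIR2411 inside UBAP2L, MIR2483 inside TENM1 on chromosome X and MIR2432 inside IL23A as annotated. MIR2284E lies between NFYB and TXNRD1 on chromosome 5. The levels of these host genes were not measured here.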

How the data were processed

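Small RNA reads of 36 libraries had been base-called with CASAVA 1.8, mapped by the authors with Bowtie to the goat assembly ARS1 without mismatches, and assigned to mature miRNAs of the classes Known and Conserved and to unnamed precursors with miRDeep2 and miRBase. The deposited values are read counts per mature miRNA and library, not normalized, and every miRNA has at least 3 counts in at least 1 library. Reads that fit several precursors may be counted for each of them. Replicates are separate goats.

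Counts were divided by the library total to give reads per 1000000 counts (RPM). Tests used edgeR 4.0.16 (quasi-likelihood, TMM scaling, no filter, R 4.3.3) on all 1391 miRNAs with Benjamini-Hochberg adjustment. A call needed an adjusted p under 0.05 and, for a fold change, an absolute log2 value of at least 1.5. Alternatives were DESeq2 1.42.0, edgeR's exact test, other scalings, filterByExpr, a goat or replicate-number block and each goat left out. The fits were tested on simulated data. Exact permutation tests used SciPy 1.17.1. A bound against a group at 0 sets each of its libraries at 3 counts.

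The replicate numbers of the labels are shared by goats of different populations. Deviations of equal-numbered libraries correlated in all 3 pairs in heart only (r = 0.36 to 0.47), with means of -0.26 to 0.20 in the other tissues, and the block by number gave 0 altitude calls among the members in every tissue. Across tissues the goat pairs the libraries by design.

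Values are named for every family row, other members with a mean of at least 1 RPM, members called in any test, and miR-2355, miR-2379 and miR-2474. In each tissue the 2 members with the largest fitted log2 fold change by altitude, in size, are also named. These were picked among members without overlap and with reads in at least 3 libraries. The members and lists were chosen with earlier results of these data known. Gene names and neighbours came from the gene positions of RefSeq (ARS1.2), and no coordinates are given. Mature sequences were not used here.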

Additional observations from a re-analysis of the deposited data

Results flagged for a closer look

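In 11 of 51 sets of 6 libraries of a tissue, 1 library lay far from the other 5 by Dixon's test at the 95% level. The sets were the summed levels and the number of members with reads in each tissue, and each member in a tissue where it was called. A call can itself rest on 1 library, so the sets were chosen in part by such libraries. Chance gives about 1 in 20 of sets not chosen in this way where values are normally distributed. The 11 of 51 cannot be set against that rate, and the rate for sparse counts such as these was not measured.

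The third low-altitude muscle library was highest for miR-2379-5p at 532 RPM, miR-2379-3p at 11.8 RPM and miR-2474-1-5p at 8.74 RPM, with 0 in the other muscle libraries, and for miR-2339-5p at 1.54 RPM, where the next was 0.736 RPM. The second high-altitude goat was highest for miR-2286-5p at 3.14 RPM and miR-2483-3p at 0.470 RPM in muscle, for miR-2347-3p at 2.58 RPM in heart and for miR-2285l-3p at 8.22 RPM in lung. The next values were 0.939 RPM for miR-2286-5p, 0.0817 RPM for miR-2483-3p and 0 for the others. In the third high-altitude goat, miR-2284a-5p was at 27.3 RPM in muscle against 3.99 RPM in the next library, and liver had reads of 15 members against 22 in the next lowest. The summed level of the miR-2284 and miR-2285 family was 52.5 RPM in the first low-altitude spleen library and 22.2 RPM in the next.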

How the results depend on the processing

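Altitude calls among the members, 0 with edgeR's quasi-likelihood test, were 2 with DESeq2 over goats and 2, 1 and 2 in heart, kidney and liver, and 1 with edgeR's exact test in liver. The block by replicate number left them at 0. The joint tissue test called 19 members, and 11 with DESeq2, beside 37.4% of the miRNAs that DESeq2 adjusted. It called 10 with filterByExpr, 10 with the goat block and 9 to 16 with 1 goat left out. The contrasts called 2, 3, 6, 5, 9 and 9 members in heart, kidney, liver, lung, muscle and spleen. DESeq2 called 1 in heart, 0 in liver and 2 in lung, beside 13.7%, 9.98% and 12.9% of the miRNAs that it adjusted. Scaling by library size alone called 1 in heart. The filterByExpr setting, which tests fewer miRNAs, called 4 in spleen, 5 in muscle, 2 in lung, 2 in liver and 6 in kidney. The goat block left 1 in liver and 3 in lung, beside 8.77% and 10.2% of all miRNAs, and its other counts were within 1.5 times. With 1 goat left out the counts were 4 to 7 in spleen, 5 to 10 in muscle, 3 to 5 in lung, 3 to 6 in liver, 1 to 4 in kidney and 1 to 3 in heart.

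The direction turned without the second high-altitude goat for miR-2347-3p in heart (-1.22) and miR-2285l-3p in lung (-0.47), and in muscle without the third low-altitude goat, or that library only, for miR-2379-5p (-0.91 and -1.27), miR-2379-3p (-0.62 and -0.50) and miR-2474-1-5p (-1.19 and -1.59). The last setting, the goat sums without muscle or without liver and lung, the ratios without 1 library, and the levels without 1 member or 1 goat were chosen after seeing the data. With any 1 of the goats left out the highest values were 5.37, 5.79, 11.90, 6.86 and 6.18 for these 5 in that order. Of 390 tissue values of the named members, 8 reversed, as given here, and 89 lost a call. None of 179 values of 13 altitude results reversed, and 8 gained a call. miR-2285a-3p in lung, not among the 13, turned direction without the first high-altitude library.

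With at least 10 counts for a detection, 11.25 members were detected per library (19.5 with 1 count) and the median member in 1 library (4). With medians in place of means, 15 members (42) had a specificity index over 0.85 and 10 (16) reached 1 RPM. Except as stated, the cause was not tested. In 34 members no library reached 10 counts, and depth limits what can be detected for these.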
